A study of Mus musculus with 12 samples.

Results

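The guanylate-binding proteins (Gbp) and the immunity-related GTPases (Irg) are 2 families of interferon-inducible GTPases. They were followed here through 10 named genes, Gbp2, Gbp3, Gbp4, Gbp7, Gbp9, Irgm1, Irgm2, Igtp, Iigp1 and Tgtp1. These were chosen by family, but with earlier results of these data known. Other genes of the families, among them Gbp2b, Gbp5, Gbp6, Tgtp2 and Ifi47, are outside the 10 members and are given further below. All 10 members were found among the 17718 genes of the count table, and all 10 passed the filter on low counts. Their identifiers in the table are ENSMUSG00000028270 (Gbp2), ENSMUSG00000028268 (Gbp3), ENSMUSG00000079363 (Gbp4), ENSMUSG00000040253 (Gbp7), ENSMUSG00000029298 (Gbp9), ENSMUSG00000046879 (Irgm1), ENSMUSG00000069874 (Irgm2), ENSMUSG00000078853 (Igtp), ENSMUSG00000054072 (Iigp1) and ENSMUSG00000078922 (Tgtp1). The data are RNA-seq counts from cultured CT26 cells, a BALB/c mouse line of colorectal carcinoma. The 3 wild-type libraries (WT1, WT2, WT3) and the 3 libraries of Mll3KO cells (sg1, sg2, sg3, as their columns are named) share 1 batch date. Mll3 is the older name of Kmt2c, which encodes a histone H3 lysine methyltransferase. The treatment label is none for wild-type and Mll3KO for the others, and no label names an interferon. They do not say whether the edited cells are a clone or a pool, nor what the number after sg stands for. Samples for CUT&Tag and for single cells were not analysed here.

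Both families belong to cell-autonomous immunity, the defence that a cell mounts inside itself. Interferon gamma acts through its receptor and the kinases JAK1 and JAK2, and the response reaches genes through GAS sites in their promoters. It also induces IRF1, which binds IRF elements, and type I interferons reach similar elements through a complex that holds IRF9. Gbp proteins assemble on the membranes of vacuoles that hold pathogens and on bacteria themselves, and they help to start inflammasome signalling. The Irg proteins fall into effectors of the GKS class, such as Iigp1 and Tgtp1, which coat and break the vacuole of Toxoplasma gondii. Regulators of the GMS class, Irgm1, Irgm2 and Igtp (also called Irgm3), sit on the cell's own membranes and hold the effectors inactive there.

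Library totals ran from 9559658 to 13406013 counts in wild-type and from 9786242 to 11129754 in knock-out, so that 1 count was worth 0.0786 to 0.108 CPM (CPM stands for counts scaled to library size, here with TMM factors). Kmt2c, the targeted gene, had 24.9, 26.2 and 25.0 CPM in wild-type against 16.0, 11.2 and 14.8 CPM in Mll3KO (log2 fold change -0.87, SE 0.129, edgeR adjusted p = 4.33e-08). Counts were taken per gene and cannot show the edit itself. Of the epithelial markers checked, 5 of 10 had a row in the table, and Epcam and Cdh1 were not among them. Summed over those 5, wild-type libraries had 54.4 to 56.7 CPM and knock-out libraries 170.5 to 181.9 CPM. The summed level of 8 of 10 endothelial and fibroblast markers was 134.7 to 148.1 and 328.5 to 357.9 CPM. For 8 of 15 immune markers it was 35.4 to 39.9 and 44.7 to 52.6 CPM, with Ptprc, the pan-leukocyte marker, at a mean of 0.0961 and 0.277 CPM. Single immune markers differed in direction: Csf1r fell (14.1 to 16.1 CPM in wild-type, 4.93 to 7.73 CPM in Mll3KO), Lyz2 rose (0.216 to 0.816 CPM against 8.36 to 9.40 CPM), and Itgax had 0 counts in each wild-type library and 14 to 22 in knock-out. Cd14 also rose, and Cd68 was not called. The part of these markers in the results was not tested.

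Most of the Gbp and Irg genes were expressed at lower levels in Mll3KO cells. Of the 10 members, 8 fell, 0 rose and 2 were not called (edgeR quasi-likelihood test, adjusted p under 0.05 over 13013 genes). The background is high in this comparison, since 33.2% of all tested genes were called lower and 33.1% higher. The knock-out and wild-type libraries did not overlap for the same 8 members, against 34.3% of tested genes that were lower without overlap. The members' median log2 fold change was -0.92, where the median of all tested genes was 0.02 and 6.20% of tested genes lay at or below -0.92. Against the stricter null hypothesis of a 1.5-fold change (edgeR's glmTreat), 5 of 10 members were called lower, with 8.87% of all genes. These 5 were Irgm1, Irgm2, Igtp, Gbp7 and Gbp4. In bulk RNA, fewer cells that express a gene and less of its RNA per cell cannot be told apart.

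Together the 10 members took 559, 540 and 501 CPM in the wild-type libraries and 269, 290 and 291 CPM in sg1, sg2 and sg3. By this sum the 3 libraries of each genotype lay close to each other and far from the other genotype. Irgm1 and Irgm2 held the largest parts of it, with wild-type means of 223 and 113 CPM.

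**Figure D1:**
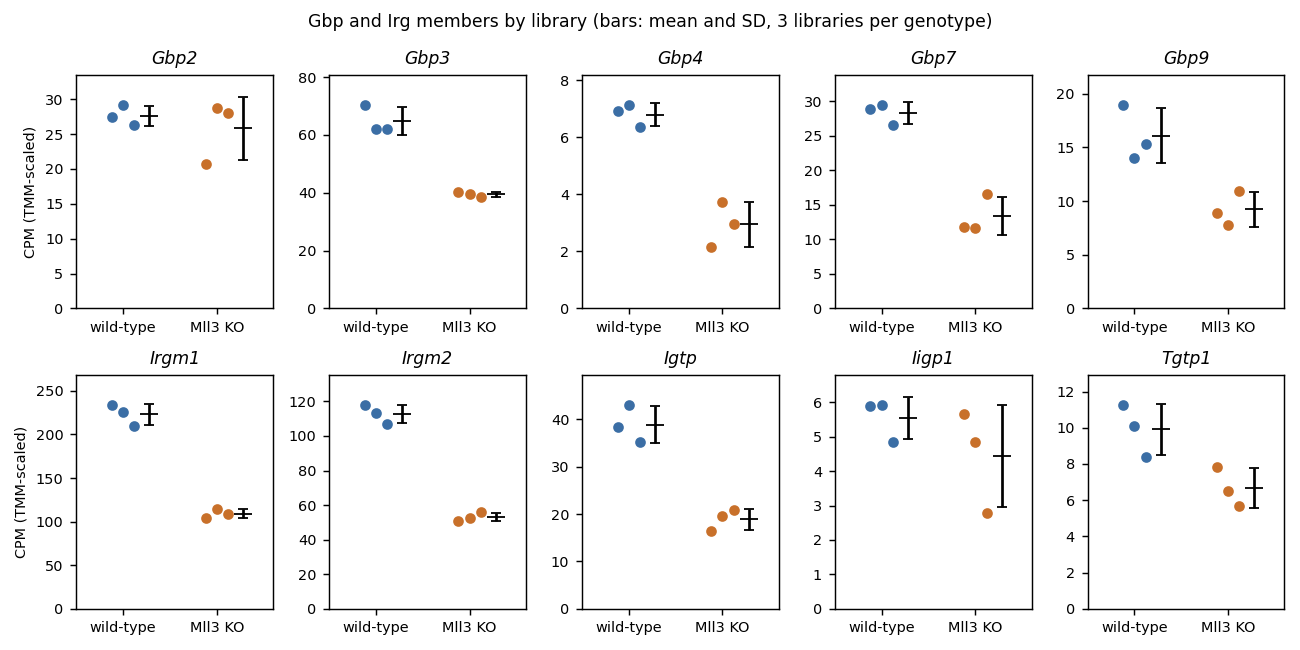
TMM-scaled CPM (vertical axes, from 0) of each member in the 3 wild-type (blue) and 3 Mll3 knock-out (orange) libraries, with mean and SD as bars. The genotypes are apart for 8 genes and overlap for Gbp2 and Iigp1.

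All 3 genes of the regulatory class fell, where 33.2% of all tested genes were called lower. Irgm1, which guards the cell's own membranes against the effector GTPases and has roles in autophagy, stood at 233, 226 and 209 CPM in wild-type and at 104, 115 and 108 CPM in knock-out. It was 2.04-fold lower (log2 fold change -1.03, SE 0.0496, edgeR adjusted p = 6.33e-26, with 3 libraries per genotype). The lowest wild-type library was 94.8 CPM above the highest knock-out library. Irgm2, a regulator that also restrains the non-canonical inflammasome, went from 118, 113 and 107 CPM to 51.0, 52.6 and 55.9 CPM, a log2 fold change of -1.08 (SE 0.0633, edgeR adjusted p = 3.50e-22). Igtp had 38.4, 42.9 and 35.3 CPM in wild-type and 16.4, 19.5 and 20.8 CPM in knock-out, a log2 fold change of -1.04 (SE 0.107, edgeR adjusted p = 1.17e-12). The 3 genes had nearly the same fold, and their 95% intervals overlapped (-1.13 to -0.93 for Irgm1, -1.21 to -0.96 for Irgm2, -1.25 to -0.82 for Igtp).

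Within each library the mix of the 3 regulators also differed little. Irgm1 held 59.2% to 59.9% of their summed counts in wild-type, and 58.6% to 61.4% in the Mll3KO libraries. For Igtp the share was 9.86% to 11.2% and 9.57% to 11.2%. Shares of both genotypes overlapped for each of the 3 genes. Counts here are not corrected for transcript length, so these shares describe the counts and not the numbers of transcripts.

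Effector genes of the GKS class had lower counts and wider intervals. Tgtp1, which encodes Irgb6, stood at 11.2, 10.1 and 8.41 CPM in wild-type and at 7.83, 6.49 and 5.67 CPM in knock-out. It fell by 0.58 on the log2 scale (SE 0.189, edgeR adjusted p = 0.00583), and the genotypes were 0.579 CPM apart at their nearest libraries. This call rests on WT1: without it the adjusted p was 0.0505 (log2 fold change -0.48), with adjusted p from 0.00104 to 0.716 over the alternatives for Tgtp1 alone. Tgtp1 has a close paralogue, Tgtp2, with which it can share reads, so that the split of counts between them is uncertain. Tgtp2 stood at 27.6, 26.8 and 21.6 CPM in wild-type and 15.9, 12.3 and 8.74 CPM in knock-out, a fall of 1.05 on the log2 scale (SE 0.146, edgeR adjusted p = 3.11e-08). Summed as 1 gene, they fell by 0.90 (edgeR adjusted p = 1.92e-07). The count of Tgtp1 per count of Tgtp2 was 0.376 to 0.407 in wild-type cells and reached 0.494 to 0.648 in the Mll3KO cells, without overlap.

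Iigp1, the gene of the effector Irga6, was not called. Its levels were 5.89, 5.91 and 4.85 CPM in wild-type and 5.68, 4.84 and 2.79 CPM in knock-out, so that sg1 lay within the wild-type range, sg2 level with WT3 and sg3 below. The log2 fold change was -0.33 with a 95% interval from -0.83 to 0.17 (edgeR adjusted p = 0.249), which holds both no change and a fall as large as those of Gbp3 and Tgtp1. It had 29 to 75 counts per library, and its coefficient of variation in knock-out was 33.5%.

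Among the guanylate-binding proteins 4 of 5 members fell, where 33.2% of all tested genes were called lower. Gbp2b, Gbp5 and Gbp6, tested outside the members, were not called. Gbp7, linked in mouse macrophages to assembly of the NADPH oxidase at bacteria, stood at 28.9, 29.5 and 26.5 CPM in wild-type and at 11.8, 11.7 and 16.6 CPM in knock-out. Its log2 fold change was -1.08 (SE 0.128, edgeR adjusted p = 8.51e-11), and sg3 was the nearest to wild-type. Gbp3 went from 70.3, 62.2 and 61.9 CPM to 40.2, 39.5 and 38.5 CPM, a log2 fold change of -0.72 (SE 0.0775, edgeR adjusted p = 4.94e-12). Its knock-out libraries were close to each other, with a coefficient of variation of 2.16% against 7.38% in wild-type.

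The remaining pair that fell had few counts. Gbp4, reported in mouse cells to restrain IRF7, had 6.91, 7.14 and 6.36 CPM in wild-type and 2.15, 3.72 and 2.98 CPM in knock-out. This was the lowest fold change of the 10 members (log2 fold change -1.19, SE 0.254, edgeR adjusted p = 4.28e-05). Its 95% interval from -1.70 to -0.69, however, takes in the values of Gbp3, Gbp7, Gbp9 and the 3 regulators. Gbp9 had 18.9, 13.97 and 15.3 CPM against 8.91, 7.78 and 10.95 CPM (log2 fold change -0.81, SE 0.160, edgeR adjusted p = 1.21e-05).

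Gbp2, a GBP that gathers on Toxoplasma vacuoles, was not called. It had 27.5, 29.2 and 26.3 CPM in wild-type and 20.7, 28.8 and 28.1 CPM in knock-out. The library sg1 was below all wild-type libraries, while sg2 and sg3 lay among them. The log2 fold change was -0.10, with a 95% interval from -0.32 to 0.13 (edgeR adjusted p = 0.460). Its value was negative in 14 of 19 alternatives. It was positive without sg1 (0.03), under upper-quartile scaling (0.06), under library size alone (0.03) and relative to the median of its chromosome (0.06) or of its neighbours (0.38), so no direction is given. The interval does not reach the fold change of Gbp3, a gene of the same cluster. In counts, Gbp2 per Gbp3 was 0.391, 0.469 and 0.425 in wild-type and 0.513, 0.729 and 0.728 in knock-out, with no overlap. Per count of Gbp7 there were 0.951, 0.990 and 0.992 counts of Gbp2 in wild-type and 1.74, 2.47 and 1.69 in knock-out. These ratios were chosen after the values were seen and were given no test.

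Promoter sequences from RefSeq (build GRCm38.p6) are shown for 7 members. Those of Gbp4 and Gbp9 were not found there. Iigp1, which was not called, was left out of the search. Gbp2 is thus the only member not called whose promoter was read, and the motifs cannot be set against the calls. Each window held 250 bases before the annotated start and 50 bases from it on. They were searched on both strands for the core of an IRF element, GAAANNGAAA, and for a GAS site, TTCNNNGAA, which reads the same on both strands. The bases from 110 to 11 before the start are printed 5′ to 3′ in the direction of the gene, with the matches in capitals and overlapping matches run together. They are from the C57BL/6J reference, whereas CT26 cells are of BALB/c origin.
Irgm2, chr11:58214867-58214966, plus strand: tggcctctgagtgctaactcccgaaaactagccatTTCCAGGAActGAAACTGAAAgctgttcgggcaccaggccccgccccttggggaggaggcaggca
Igtp, chr11:58199446-58199545, plus strand: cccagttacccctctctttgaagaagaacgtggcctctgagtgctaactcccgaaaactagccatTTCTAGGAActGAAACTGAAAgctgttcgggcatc
Tgtp1, chr11:48992257-48992356, minus strand: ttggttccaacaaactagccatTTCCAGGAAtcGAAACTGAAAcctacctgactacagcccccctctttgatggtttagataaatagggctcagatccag
Irgm1, chr11:48871431-48871530, minus strand: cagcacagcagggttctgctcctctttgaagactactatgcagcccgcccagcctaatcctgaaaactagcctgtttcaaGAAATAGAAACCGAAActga
Gbp7, chr3:142530226-142530325, plus strand: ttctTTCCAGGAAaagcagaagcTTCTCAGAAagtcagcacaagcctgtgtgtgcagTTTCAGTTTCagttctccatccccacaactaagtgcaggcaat
Gbp3, chr3:142559934-142560033, plus strand: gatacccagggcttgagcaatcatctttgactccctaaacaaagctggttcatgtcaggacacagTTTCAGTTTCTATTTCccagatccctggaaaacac
Gbp2, chr3:142620553-142620652, plus strand: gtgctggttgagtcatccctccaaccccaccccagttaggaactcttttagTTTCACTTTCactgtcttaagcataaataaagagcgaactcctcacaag

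All 7 promoters searched held at least 1 IRF element, which 3.44% of 32851 promoter windows of the table hold. A GAS site was found in 4 of 7 (Irgm2, Igtp, Tgtp1 and Gbp7), against 8.30% of all windows, and windows with both motifs make up 0.454% of the table. In Irgm2, Igtp and Tgtp1 the GAS site was followed after 2 bases by the IRF element, and in Gbp7 the nearest GAS site lay 25 bases from it. Irgm1 and Gbp3 each had 2 overlapping IRF elements and no GAS match. Gbp2, which was not called, held an IRF element 59 to 50 bases before its start, as did Gbp7, which fell, at 53 to 44 bases. A second annotated start of Gbp3 had neither motif in its window. These are matches of letters and show no binding.

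**Figure D2:**
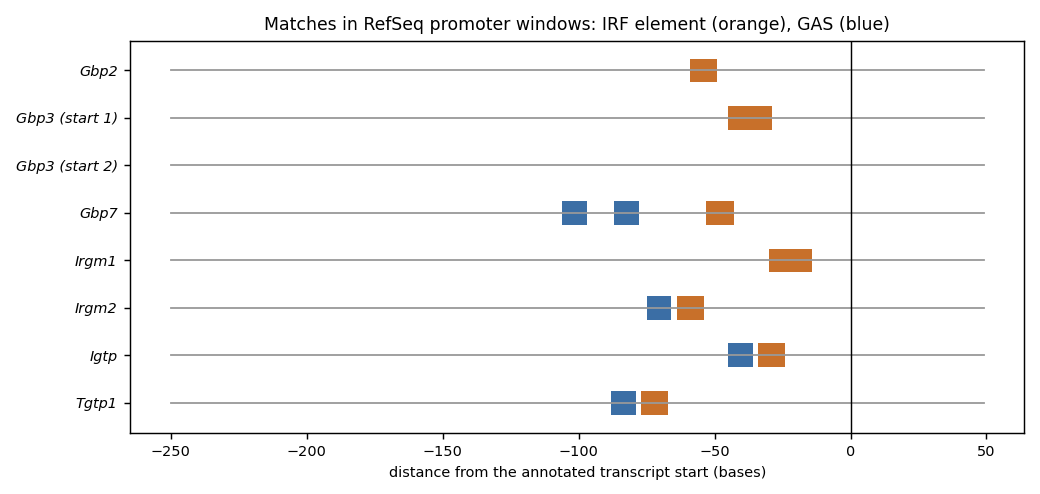
Matches to the IRF element (orange) and the GAS site (blue) in 8 promoter windows of 7 members, by distance in bases from the annotated transcript start (0). All matches lie within 110 bases before the start, and the IRF element is the motif that all 7 members shown have. Gbp4, Gbp9 and Iigp1 were not searched.

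Beyond the members, tested genes with an IRF element in a promoter window were more often lower than higher. Of 351 such genes, 42.2% were called lower and 25.4% higher, with a median log2 fold change of -0.12. Over the 9393 tested genes with a window, 33.8% were lower and 34.6% higher, with a median of 0.02. For the 753 genes with a GAS site the shares were 34.4% and 34.3% (median -0.02), close to those of all genes. For 37 genes with both motifs in 1 window they were 51.4% and 24.3% (median -0.30). These shares are a description with no test, and the members were left out of them. Related genes such as Tgtp2, Gbp2b and Gbp5 were not left out, so the shares are not separate from the families.

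The genes sit in a few clusters, and the surroundings of the clusters differed. Irgm1 (48865245 to 48871420) and Tgtp1 (48985329 to 48992246) lie in a cluster of chromosome 11, and Igtp (58199556 to 58207592) and Irgm2 (58214977 to 58222783) side by side in another. Genes outside the family within 5 Mb of Irgm1 had a median log2 fold change of 0.11, and 0 of 56 lay below Irgm1. Around Igtp and Irgm2 the median was 0.07, and 4 of 105 neighbours lay below them. Gbp4 and Gbp9, on chromosome 5, had neighbours with medians of -0.02, of which 2 of 61 and 3 of 58 lay below them.

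The cluster of chromosome 3 lay in a stretch that was lower as a whole. It holds Gbp7 (142530336 to 142550151), Gbp3 (142560016 to 142573213) and Gbp2 (142620663 to 142638008). Of 42 neighbours within 5 Mb, 25 were called lower and 7 higher, with a median of -0.47. Gbp3 was within that range, with 17 of 42 neighbours below it, and its value relative to their median was -0.25. Gbp7 was below most of them (6 of 42 lay lower) and stood at -0.61 relative to their median. Gbp2 stood at 0.38 relative to the same median. Iigp1, on another chromosome, was in a similar position, since its 37 neighbours had a median of -0.57, and relative to it the value of Iigp1 was 0.25.

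**Figure D3:**
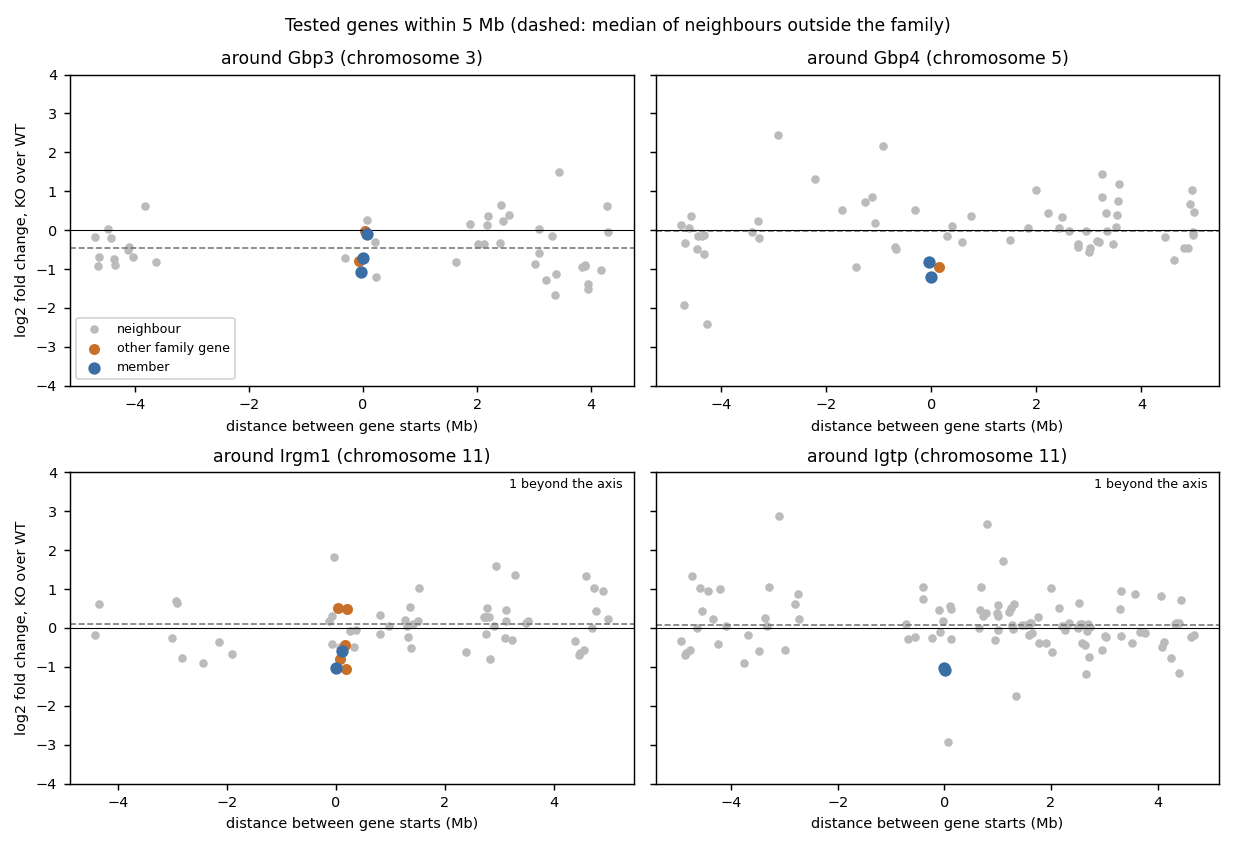
Log2 fold change of tested genes (knock-out over wild-type) by distance in Mb from the start of Gbp3, Gbp4, Irgm1 and Igtp, with members in blue, related family genes in orange and other genes in grey. The dashed line, the median of the grey points, lies at -0.47 around Gbp3 and between -0.02 and 0.11 in the other panels; 1 gene in each chromosome 11 panel is beyond the axis.

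A list of 26 related GTPase genes was read beside the members. Of these, 22 had a row and 15 were tested, of which 8 fell, 1 rose and 6 were not called, with a median log2 fold change of -0.57 (33.2% of all tested genes were lower and 33.1% higher). Ifi47, a related GTPase gene that rose, is counted with the interferon gamma response genes and not here. The antiviral dynamin-like GTPase genes Mx2 and Mx1 fell by 1.55 (SE 0.133) and 1.53 (SE 0.450). Mx2 stood at 26.6 to 29.0 CPM in wild-type and 7.96 to 10.6 CPM in knock-out. Atl2, one of the atlastins that fuse membranes of the endoplasmic reticulum and are kin of the GBPs, fell by 1.00 (SE 0.0690), whereas Atl3 rose by 0.11 (SE 0.0465), a call lost with DESeq2, with no filter and without WT2, WT3, sg1 or sg3. Atl1 had -0.09 and Irgq -0.10, and neither was called. Smaller falls were found for 9930111J21Rik1 (-0.80), Gm4951 (-0.57), Gm4070 (-0.50) and 9930111J21Rik2 (-0.44).

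The other Gbp genes had few counts, with the exception of Gbp2b. Gbp2b, which lies beside Gbp2, had 25.0, 27.5 and 24.5 CPM in wild-type and 25.5, 22.1 and 28.8 CPM in knock-out, a log2 fold change of -0.01 with a 95% interval from -0.23 to 0.21. Its reads can be confused with those of Gbp2, and summed as 1 gene the pair had a value of -0.05 (edgeR adjusted p = 0.559). Gbp5 and Gbp6 had log2 fold changes of -0.79 and -0.95, but neither passed the threshold (edgeR adjusted p = 0.0584 and 0.0642). Gbp8, Gbp10 and Gbp11 were not tested because of low counts. Summing Gbp4, Gbp6, Gbp8, Gbp9, Gbp10 and Gbp11, which are close paralogues on chromosome 5, gave -0.95 (edgeR adjusted p = 4.02e-09). Gm12185 had 0.52 and was not called (edgeR adjusted p = 0.310).

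A relative of the members moved the other way. Ifi47, which encodes the immunity-related GTPase Irgd and lies in the same cluster as Irgm1, was named after its values were seen. It rose from 39.4, 39.2 and 40.8 CPM to 55.9, 55.1 and 56.8 CPM, a log2 fold change of 0.49 (SE 0.0783, edgeR adjusted p = 1.99e-07). The count of Ifi47 per count of Irgm1 was 0.169 to 0.195 in wild-type cells, against 0.480 to 0.536 in the Mll3KO cells. Its promoter window held neither motif. The windows of Gbp2b, Tgtp2 and Gbp5 were also searched. That of Gbp2b, which was not called, held an IRF element. Those of Tgtp2, which fell, and Gbp5, which was not called, held both motifs. Irgb10, another effector, is encoded by Gm12250, also looked up later, which had 2 to 12 counts per library and was not tested.

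**Figure D4:**
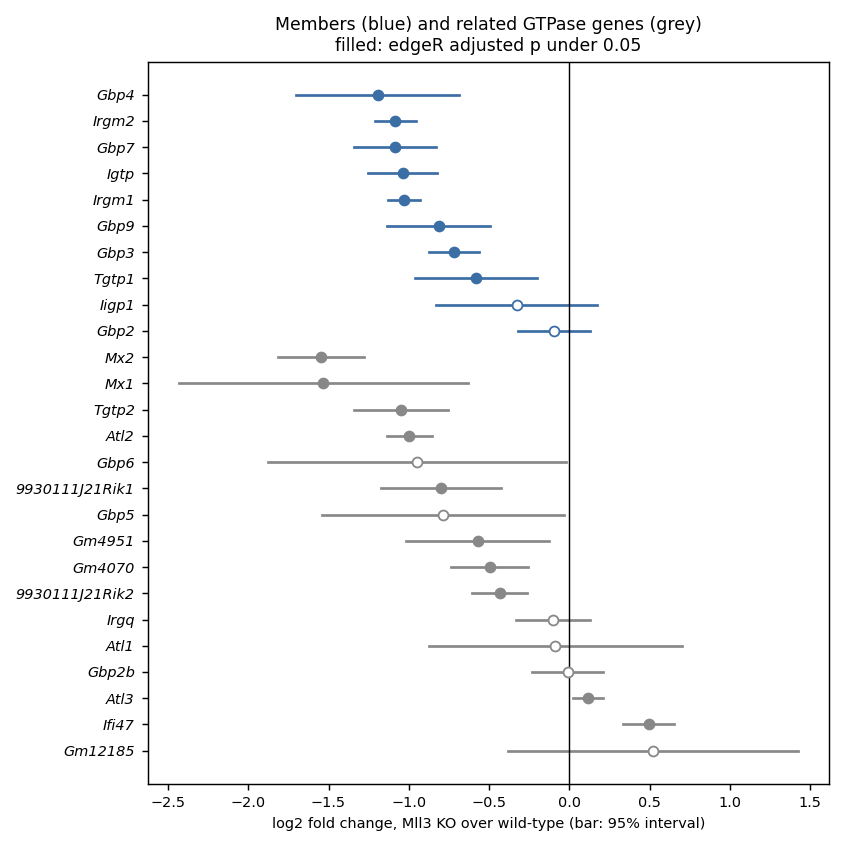
Log2 fold change (knock-out over wild-type) with its 95% interval for the 10 members (blue) and 16 related GTPase genes (grey), filled where the edgeR adjusted p was under 0.05. Members run from -1.19 (Gbp4) to -0.10 (Gbp2), and Ifi47 and Atl3 are the filled points above 0.

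Genes of the route from interferon to the members were called in both directions. Of 22 tested receptor, kinase and factor genes, 8 fell, 6 rose and 8 were not called, with a median log2 fold change of -0.15. These counts are near the shares of all tested genes (33.2% lower and 33.1% higher) and are no result about the list. The receptor chains Ifngr1 and Ifngr2 rose by 0.30 (SE 0.0910) and 0.38 (SE 0.113), Jak1 had -0.07 and was not called, and Jak2 fell by 0.29 (SE 0.0548). Irf1, the inducible activator of the IRF element, rose from 26.5, 20.1 and 21.03 CPM to 43.1, 41.8 and 47.5 CPM, a log2 fold change of 0.96 (SE 0.100). All 3 knock-out libraries were above all wild-type libraries, so that Irf1 moved the other way from the 8 members that fell. Irf9, named after its values were seen, fell (log2 fold change -0.70, SE 0.0664). Its range was 98.3 to 103.9 CPM in wild-type and 56.7 to 70.8 CPM in knock-out. Usp18, a negative regulator of type I interferon signalling, fell by 1.40, Irf7 by 0.90, and the phosphatase gene Ptpn2 by 1.04. Ifng, the gene of interferon gamma, had no row in the table, and Ifnb1 had 2 to 9 counts per library.

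Other genes of the interferon gamma response moved in both directions as well. Of 21 tested, 13 fell, 6 rose, Ifi47 among them, and 2 were not called, with a median log2 fold change of -0.42, against 33.2% lower and 33.1% higher among all tested genes. The 4 genes with the smallest p were Rnf213, a large ubiquitin ligase that targets bacteria and vacuoles (-0.96), the tryptophanyl-tRNA synthetase gene Wars (-0.84), the biopterin synthesis enzyme gene Gch1 (-1.10) and the chemokine gene Cxcl10 (-1.39).

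The ATG8 conjugation machinery directs Irg and Gbp proteins to foreign vacuoles and away from the cell's own membranes. A list of its genes, with other genes of vacuole targeting, was partly lower. Of 20 genes of this list tested, 11 fell, 0 rose and 9 were not called, with a median of -0.20, against the same 33.2% and 33.1%. Atg12, part of the conjugating complex, fell by 0.93 and Atg16l1 by 0.49. Atg3 (-0.09), Atg5 (0.12), Atg7 (-0.11) and Atg10 (-0.32) were not called. The conjugation genes named here were thus called lower at about the share of all tested genes, which is no result about them. Of genes listed beside the conjugation machinery, the ubiquitin-like modifier gene Isg15 fell by 0.98. The damage-sensing galectin gene Lgals8 fell by 0.82 and the ubiquitin ligase gene Trim21 by 1.05. Under upper-quartile scaling 4 genes of this list were called higher, under library size alone 3, and without WT2 1.

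Genes of inflammasomes, whose signalling Gbp proteins help to start, were read together with other cell death genes. Of 10 tested, 4 rose and 4 fell, with a median of -0.11, which is near the background of 33.1% and 33.2% and is read no further. Gsdmd, the pore-forming protein of pyroptosis, rose from a wild-type range of 15.7 to 16.6 CPM to a knock-out range of 44.9 to 47.1 CPM (log2 fold change 1.51), Gsdme rose by 0.86 and the sensor gene Nlrp1b by 2.33, while the necroptosis effector gene Mlkl fell by 0.75. Casp4, which encodes caspase-11, the lipopolysaccharide sensor that Gbp proteins serve, was named after its values were seen. It fell from 15.4 ± 1.02 to 7.81 ± 0.573 CPM (SD, n = 3 per group, log2 fold change -0.98, SE 0.160). Of the other caspase genes in the list, Casp1 rose by 0.90 (SE 0.133) and Casp8 was not called.

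**Figure D5:**
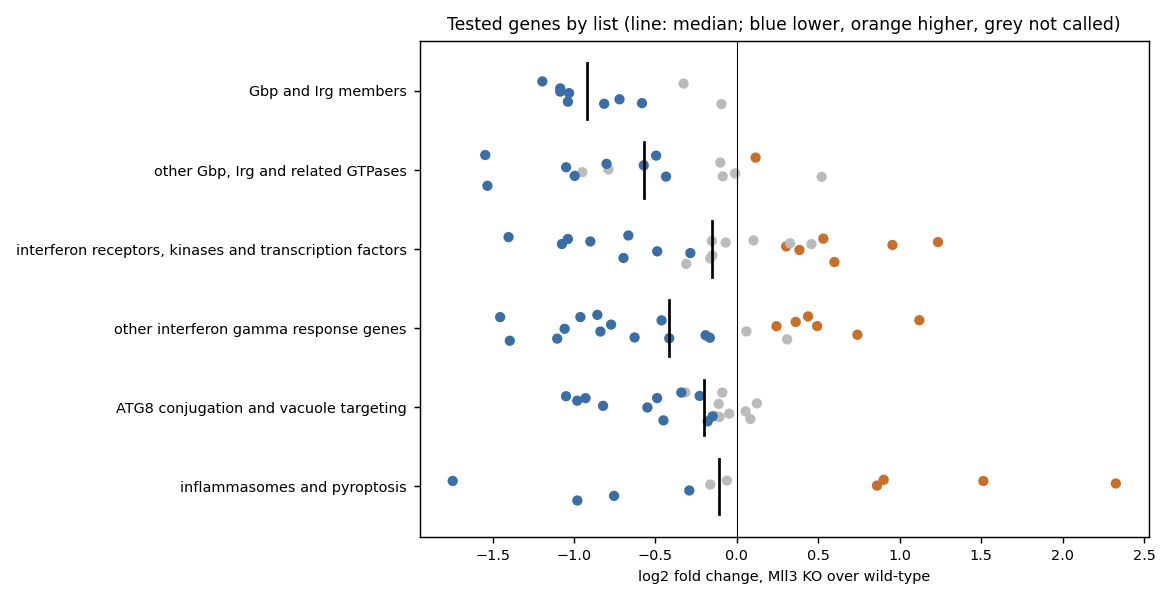
Log2 fold change (knock-out over wild-type) of each tested gene, by list, with the list median as a line, genes called lower in blue, called higher in orange and not called in grey. The members have the lowest median (-0.92) of the 6 lists. Neither the members nor the ATG8 list hold a gene called higher, and Ifi47, which rose, is shown with the interferon gamma response genes.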

How the data were processed

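Per the labels' protocols, polyA RNA was made into strand-specific libraries. The authors deposited whole-number read counts per Ensembl gene, with 6 columns. The submitters' processing notes name build mm10 and, among other tools, STAR, HTSeq and fastp. Versions, annotation release and strand setting: not given in the sources used here. WT columns were matched to samples by group and number, sg columns to the knock-out group without a replicate number.

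Symbols were found for 17650 of 17718 identifiers, and positions came from RefSeq (GRCm38.p6) by symbol for 11923 of 13013 tested genes. Genes were kept with filterByExpr (minimum count 10, minimum total 15), scaled with TMM and tested with edgeR 4.0.16 (quasi-likelihood F test, robust, R 4.3.3), with Benjamini-Hochberg adjustment over all tested genes at 0.05. SE values were derived from the F statistic, and intervals are 95%. The pipeline was tested on simulated data. The biological coefficient of variation was 5.03%. Alternatives used DESeq2 1.42.0, limma 3.58.1, other scalings and filters. The named genes are all members, every tested related GTPase, 6 genes of the interferon gamma route and the up to 4 genes of smallest p in each other list; the rest were chosen after their values were seen. A gene named by this rule is not reported here. Members and lists were chosen with earlier results of these data known. No label says whether the 3 libraries of a genotype are separate cultures, and their spread, on which each p-value rests, may be technical only.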

Additional observations from a re-analysis of the deposited data

How the results depend on the processing

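The 8 members that fell had a negative log2 fold change in every alternative that estimated it anew (the 1.5-fold test and the threshold of 0.01 do not). Gbp2 changed sign: 0.062 with upper-quartile scaling, 0.026 with library size alone and 0.030 without sg1 (range -0.194 to 0.030 when each library was left out). Relative to the chromosome median Gbp2 had 0.058, and relative to the median of neighbours Gbp2 had 0.38 and Iigp1 0.25. Over all tested genes, the median rose from 0.02 to 0.17 under upper-quartile scaling and to 0.14 under library size alone. Against a 1.5-fold change, calls were 5 members lower, 4 related GTPases lower and 0 higher, 4 and 1 of the interferon route, 6 and 2 of the interferon gamma response, and 4 of the ATG8 list lower. That test asks for a larger change by construction, and Gbp3, Gbp9 and Tgtp1 missed it with adjusted p of 0.0572, 0.103 and 0.716. Tgtp1 also missed the threshold without WT1 (0.0505). Atl3, the 1 gene of the related GTPase list that rose, was not called (0 higher) with no filter, with DESeq2 and at an adjusted p of 0.01, and the count was 0 to 1 when each library was left out (0 without WT2, WT3, sg1 or sg3). In the ATG8 list the count of higher genes was 4 with upper-quartile scaling, 3 with library size alone and 0 to 1 when each library was left out (1 without WT2); the cause was not tested. For members with few counts, depth and the spread between libraries were not separated. No paired analysis was possible because the knock-out columns carry no replicate number that the labels tie to a sample.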
